A study of Mus musculus with 28 samples.

Results

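Genes of the matrix metalloprotease (Mmp), Adamts and Timp families were followed through the reprogramming of mouse embryonic fibroblasts (MEFs) to induced pluripotent stem cells (iPSCs), in WT cells and in cells labelled K36M. The members were taken by symbol alone, as every gene named Mmp, Adamts or Timp plus a number, and came to 46 genes (23 Mmp, 19 Adamts and 4 Timp genes) of the 37620 in the count table. K36M is a lysine-to-methionine change in the tail of histone H3 that lowers methylation of lysine 36. Poly(A) RNA was sequenced in 14 groups of 2 libraries each, that is WT and K36M at each of 7 stages. The stages were MEFs at d0, cells reprogrammed with the OKSM factors in AGi medium for the 4 time points d2, d4, d6 and d8, iPSCs that had been passaged in S/L medium, and MEFs without OKSM, written noOKSM below. Library names carry H3_3 for WT and K36M for the mutant. The names of the noOKSM libraries begin with MHb9 and those of all others with MHb8. What these prefixes stand for is not given in the sources used here. In comparisons of noOKSM with another stage, stage and prefix cannot be told apart. What limits these groups as a model is in part unknown. How K36M and the OKSM factors were brought into the cells and what drives them, the mouse strain, the age of the noOKSM cells and whether replicates came from separate cultures are points that the labels leave out. The p-values thus rest on library-to-library spread, part or all of which may be technical.

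Mmp proteins are zinc-dependent proteases that cut collagens and other proteins of the extracellular matrix. Most are secreted as inactive precursors, and the membrane-type Mmps stay anchored at the cell surface, where Mmp14 activates Mmp2 with Timp2 as its adaptor. Adamts proteins are secreted relatives that cut proteoglycans such as aggrecan and versican or trim procollagens. Timp proteins are secreted inhibitors that block the active site of these enzymes, and Timp3 also blocks several Adamts proteases. Fibroblasts are a main source of all 3 families, and epithelial and pluripotent cells make less of most of them.

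Library totals ran from 17507521 to 35622279 counts. Of the 46 members, 37 had enough counts to be tested over all 28 libraries (16 Mmp, 18 Adamts and 3 Timp genes), and 34 over the libraries of d2 to d8. The 9 others were not tested: Mmp1a and Mmp7 had 0 counts in all libraries together, Mmp8 had 4, Mmp1b 5, Mmp27 9, Timp4 11, Adamts13 12, Mmp21 18 and Mmp20 24. The K36M d6 libraries stood apart from each other, with a root mean square log2 difference over tested genes of 0.467, where the other 13 groups had 0.128 to 0.229. Summed fibroblast markers were at 1845 to 1958 counts per 1e+06 reads (CPM) in WT d8 and 90.1 to 104.8 in K36M d8, summed pluripotent cell markers were 328 to 333 and 1694 to 1713, and summed epithelial markers were 980.3 to 1071 and 3824 to 3908. All 10 fibroblast markers had a count in every group. All 10 pluripotent cell markers had one in the iPSC groups, in K36M noOKSM and in several reprogramming groups, so a count alone sets no group apart. In these bulk samples, fewer cells of a type and less RNA per cell cannot be told apart, and the part of the marker differences in the results below was not tested.

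Compared per length, as CPM per kb of exon, a few genes made up most of the family RNA. In WT MEFs at d0 the mean level was 501 for Timp1, 357 for Mmp14, 282 for Timp2, 112 for Mmp2 and 47.2 for Timp3, and these 5 genes held most of the summed level of all members, with Timp1 alone at 33.6%. Timp1 and Mmp14 also led in WT d2 to d8, and Timp1 led in the iPSCs of both genotypes. The summed level of all members was 1516 and 1465 in the WT d0 libraries, 342 and 340.3 in K36M d2 against 506 and 496 in WT d2, and 141.6 and 147 in K36M d8 against 488 and 463 in WT d8. At d8 the K36M libraries thus lay below both WT d8 libraries and also below the iPSC libraries of both genotypes, which ran from 164 to 204. The Timp sum divided by the Mmp sum was 1.69 and 1.61 in WT d8 and 0.699 and 0.788 in K36M d8, and 1.41 and 1.45 in WT d6 and 1.65 and 1.63 in K36M d6, so the ratio was lower in K36M at d8 and higher at d6. It was also lower in K36M at d0, d2 and d4, with 1.25 and 1.29 against 1.68 and 1.43 in WT at d0, 0.948 and 0.890 against 1.27 and 1.32 at d2, and 1.16 and 1.26 against 1.72 and 1.40 at d4. In iPSCs K36M was the higher one, at 1.09 and 1.15 against 0.978 and 1.05, and in noOKSM the genotypes overlapped, at 1.25 and 1.57 against 1.53 and 1.63. These sums and ratios are descriptions with no test.

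**Figure D1:**
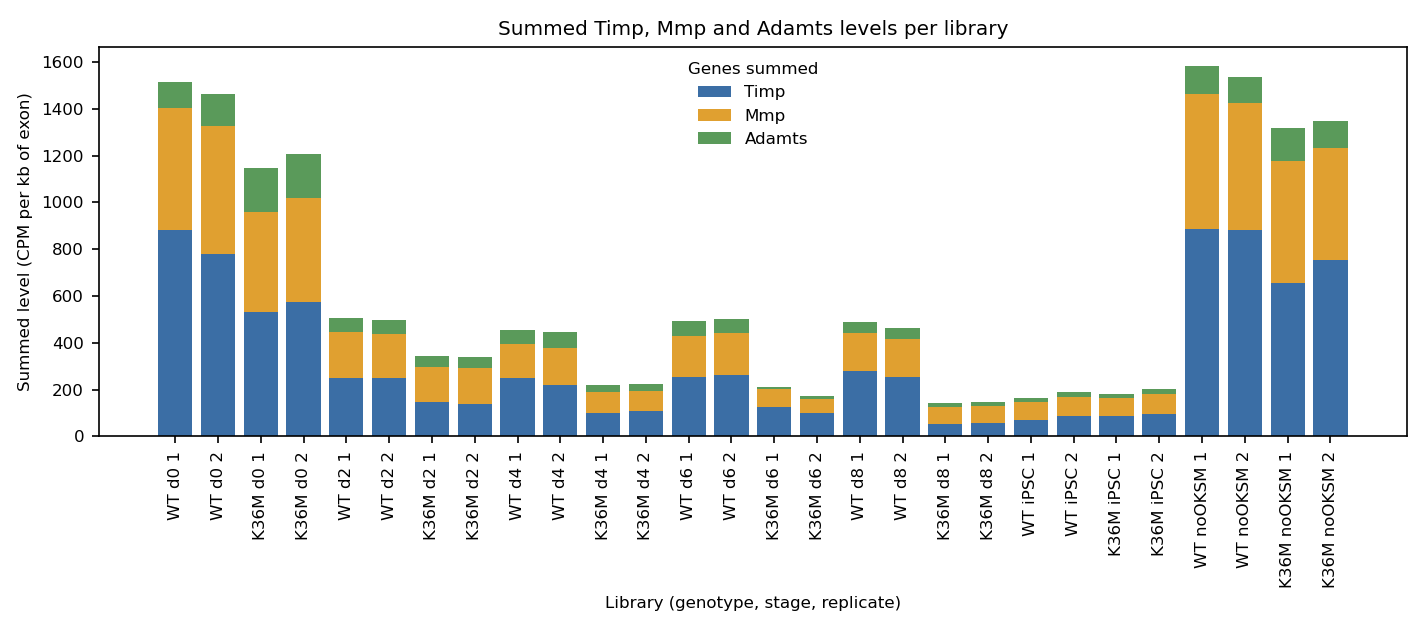
Stacked bars give the summed level of the Timp, Mmp and Adamts genes in each of the 28 libraries, in CPM per kb of exon, with 1 bar per library. The WT d0 bars reach 1516 and 1465, the K36M d8 bars 141.6 and 147.

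In WT cells most members were highest in MEFs and lost RNA within the first days. Among the 37 tested members, 22 had their highest WT mean at d0 (noOKSM aside), 2 at d2, 4 at d6 and 9 in iPSCs. At d2, 25 members were lower than at d0 and 4 were higher, where 30.7% and 27.1% of all tested genes were called in these directions. The 4 that rose at d2 were Adamts20 (3.72 on the log2 scale), Adamts7 (3.23), Mmp28 (2.04) and Mmp15 (0.79). At d4, 31 members differed from d0 and at d6 30 did, where 57.4% and 59.0% of all genes were called. At d8, 24 were lower and 7 higher (31.4% and 32.7% of all genes), and in iPSCs 25 were lower and 9 higher (37.4% and 40.1%). WT noOKSM MEFs differed from WT d0 in 2 members, Mmp12 and Adamts16, both lower, where 8.2% of all genes differed. Medium changes with stage in this design, so the effects of time and medium cannot be told apart.

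A small group was higher than in MEFs during reprogramming and lower than in MEFs in iPSCs. Mmp28, the last numbered Mmp, also called epilysin, stood at 3.01 and 4.44 CPM in the WT d0 libraries, 15.8 and 15 at d2, 49.5 and 52.8 at d4, 68 and 61.6 at d6, 47.7 and 52.2 at d8 and 0.551 and 0.787 in iPSCs. Every WT library of d2 to d8 lay above both d0 libraries, and both iPSC libraries lay below them. Adamts7, which cuts the cartilage protein Comp, took a similar course from 10.7 and 16.7 CPM at d0 to 133 and 125 at d2, 144 and 131 at d6 and 4.16 and 4.64 in iPSCs. Adamts20, a versican-cutting protease needed for pigment cell development, went from 0.859 and 0.765 CPM to 11.2 and 10.3 at d2, 2.74 and 3.25 at d8 and 0.2 and 0.373 in iPSCs. In iPSCs against d0 all 3 were lower than in MEFs, with log2 fold changes of -2.45 ± 0.25 for Mmp28, -1.64 ± 0.17 for Adamts7 and -1.45 ± 0.47 for Adamts20 (± standard error, as for all fold changes here). The Adamts20 value rested on 31 counts in WT d0 and 13 in WT iPSC, and became -1.11 without WT iPSC replicate 1.

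From d2 to d8 more members were lower than higher in K36M, and the number that differed went from 13 at d2 to 29 at d6 and at d8. Of 37 tested members, 11 were lower and 2 higher in K36M at d2, 19 and 7 at d4, 22 and 7 at d6, and 19 and 10 at d8. The shares of all tested genes that were lower and higher were 10.4% and 9.74% at d2, 25.8% and 27.1% at d4, 33.7% and 37.3% at d6, and 29.0% and 31.6% at d8. In the fit of the difference shared by d2 to d8, 19 of 34 members were lower and 8 higher, where 28.2% and 30.2% of all genes were called, and the median log2 fold change was -0.95 over the members and 0.02 over all genes. The 10 members lower on all 4 days were Timp1, Timp2, Timp3, Mmp11, Mmp14, Mmp16, Mmp28, Adamts1, Adamts5 and Adamts12. Without the d6 libraries the shared values moved from -3.94 to -3.30 for Adamts5, -3.72 to -3.12 for Mmp28, -2.76 to -2.14 for Adamts12, -2.62 to -1.98 for Mmp16, -1.86 to -1.25 for Adamts20 and 3.30 to 2.70 for Mmp9, and all 6 were still called. None was higher on all 4 days, and the 5 higher on 3 days were Mmp9, Mmp12, Mmp17, Mmp25 and Adamts19. How many of all tested genes were called the same way on 3 or 4 days was not counted, so these counts have no background beside them.

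**Figure D2:**
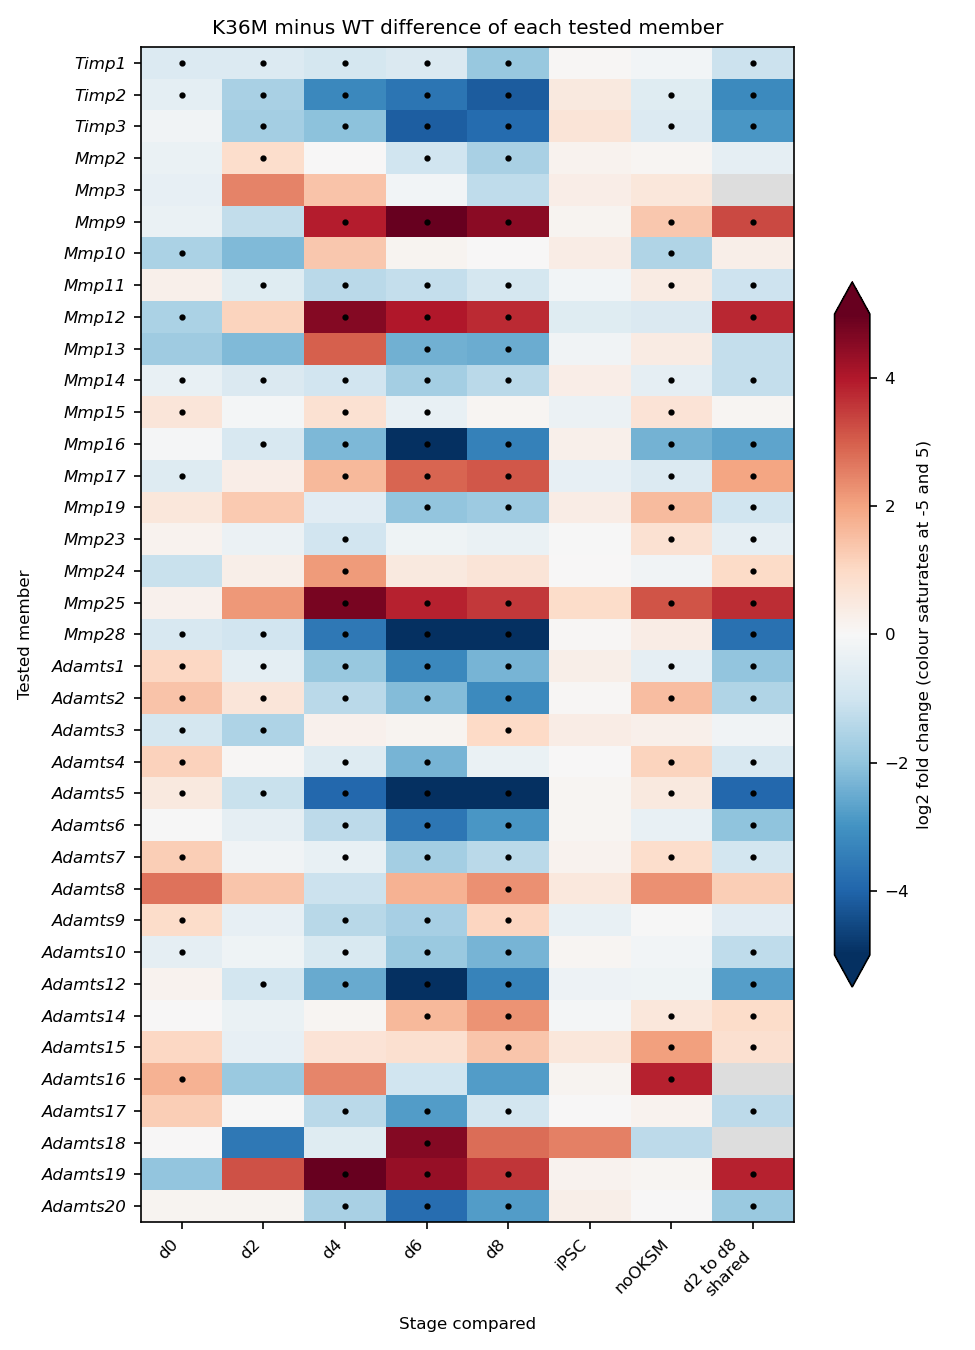
Colour gives the K36M minus WT log2 fold change of each of the 37 tested members (rows) at each stage and shared over d2 to d8 (columns), with dots where the adjusted p was below 0.05 and grey where a member was not tested. Values of members with few counts are fitted and depend on the prior count. The iPSC column holds no dot, and the Timp rows are blue at d2 to d8.

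All 3 tested Timp inhibitors were lower in K36M on each day from d2 to d8. Timp2 (chromosome 11, 118162383 to 118217054 of mm9), the inhibitor that also bridges Mmp14 and pro-Mmp2, stood at 1084 and 1113 CPM in WT d0 and 772 and 776 in K36M d0. At d2 its values were 115 and 114 in WT and 36.7 and 37.5 in K36M, at d4 164 and 177 against 18.7 and 17.9, at d6 238 and 243 against 22 and 16, and at d8 243 and 243 against 12.9 and 14.4. The genotypes did not overlap on any of these days, WT libraries held more at d6 and d8 than at d2, and every K36M value from d4 on lay below those of d2. The shared difference of Timp2 was a log2 fold change of -3.20 ± 0.29, adjusted p = 9.24e-07, and the daily log2 fold change went from -1.63 at d2 to -4.16 at d8. In iPSCs Timp2 stood at 58.9 and 84.7 CPM in WT and 91.1 and 110.1 in K36M, so K36M cells at d8 held less than K36M iPSCs (2.88 ± 0.15 for iPSC against d8 on the log2 scale, adjusted p = 2.69e-13).

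Timp3 (chromosome 10, 85763117 to 85812251), the inhibitor bound to the matrix, followed the same order. WT libraries held 159 and 163 CPM at d2, 97.5 and 111 at d4, 155 and 159.9 at d6 and 154 and 169 at d8, and K36M libraries 46.8 and 51.4, 25.8 and 25, 5.33 and 12.7 and 9.59 and 13.1 on the same days, with no overlap between genotypes. The d0 values were 339 and 429 in WT and 339 and 339 in K36M, a difference that was not called (log2 fold change -0.18 ± 0.22, adjusted p = 0.639). The shared difference was a log2 fold change of -2.92 ± 0.34, adjusted p = 7.82e-06. The d6 value was -4.12 with both K36M libraries and -4.88 without K36M d6 replicate 2. In iPSCs Timp3 held 25.3 and 36.5 CPM in WT and 41.2 and 55 in K36M, and K36M iPSCs were above K36M d8 by 2.09 ± 0.25 (adjusted p = 6.54e-07). Of the Timp3 exon bases in the annotation, 21.3% also belong to Syn3, a neuronal gene, and whether counting separated them is not given in the sources used here.

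Timp1 (chromosome X, 20447292 to 20451861), a soluble inhibitor that lies inside a Syn1 intron, differed less. It held 179 and 177 CPM in WT d2 and 115 and 108 in K36M d2, 174 and 142 against 82.5 and 88.5 at d4, 152 and 158 against 105 and 82 at d6 and 174 and 153 against 41.1 and 45.9 at d8. K36M libraries lay below WT on each day, and the shared difference was a log2 fold change of -1.06 ± 0.15, adjusted p = 4.83e-05. Timp1 was also lower in K36M at d0, with 498 and 391 CPM in WT and 261 and 295 in K36M (log2 fold change -0.68 ± 0.13, adjusted p = 0.000968). Timp4, the fourth inhibitor, had 11 counts in all libraries and was not tested.

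**Figure D3:**
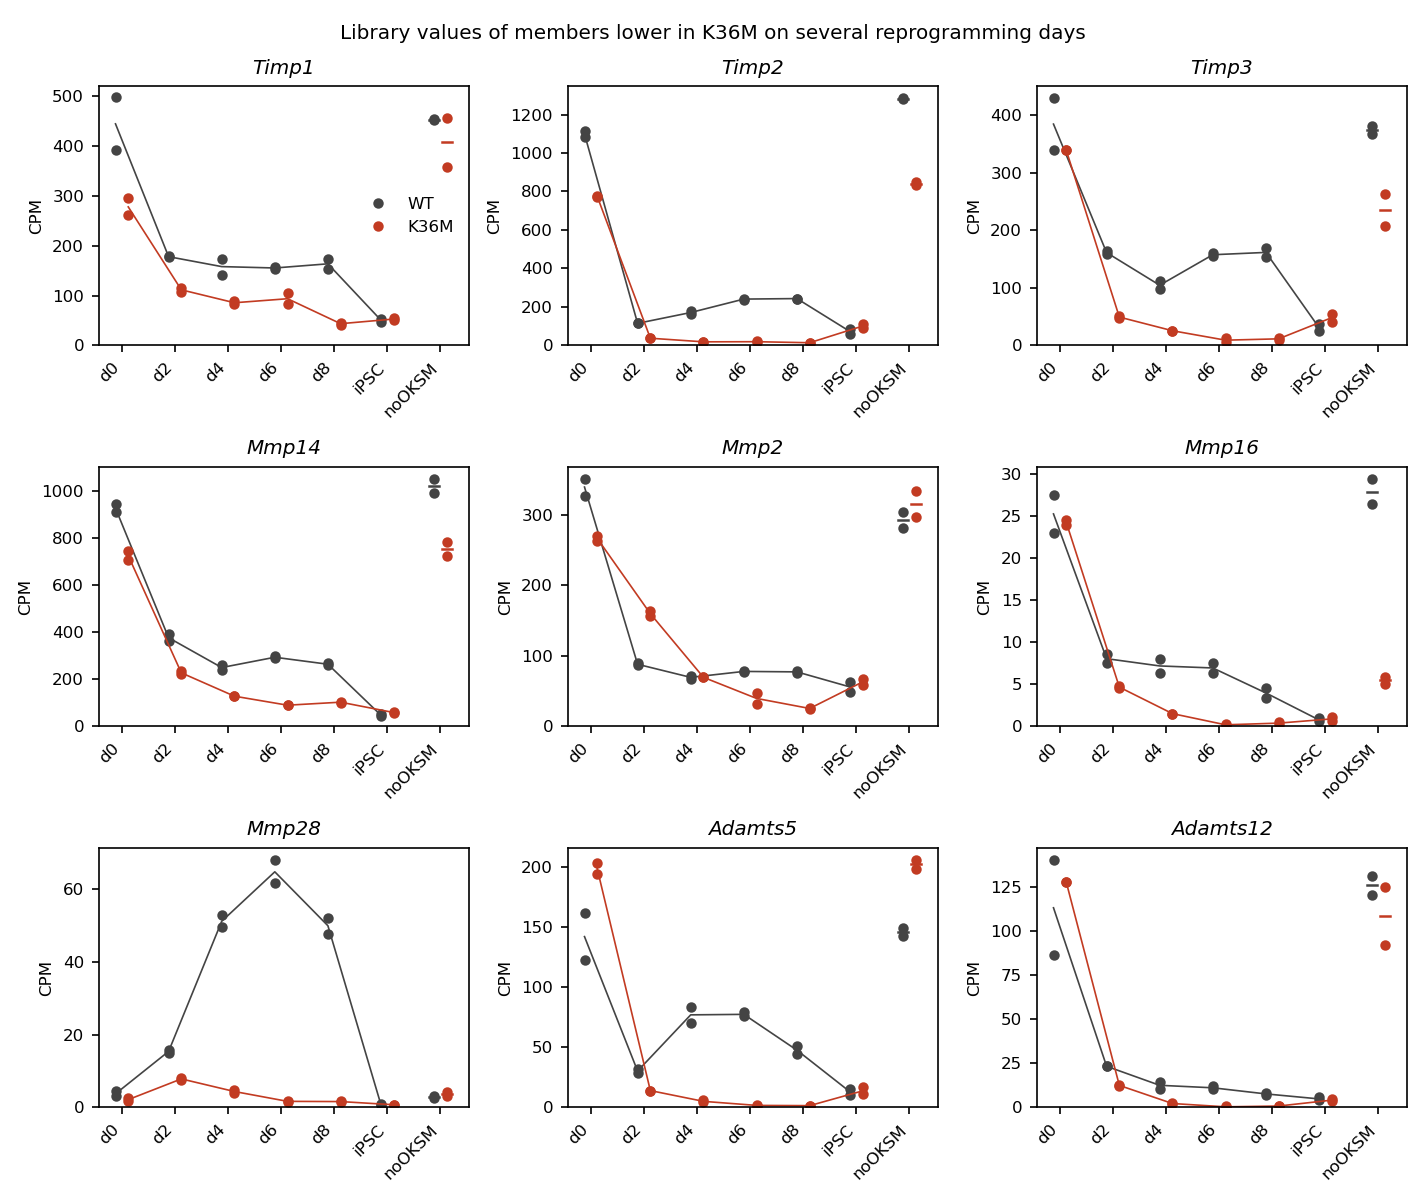
Points give CPM in each library for 9 members, WT in grey and K36M in red. Lines join group means from d0 to iPSC and short bars mark the noOKSM means. For Timp2, both K36M points at d8 are at 14.4 CPM or below and both WT points are at 243.

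Membrane-type Mmps split by gene. Mmp14 (chromosome 14, 55050441 to 55060095), the main collagenase of the fibroblast surface, was the Mmp with the highest level per length in WT MEFs. It stood at 390.5 and 362 CPM in WT d2 and 221 and 233 in K36M d2, at 238 and 262 against 128 and 128 at d4, at 290.0 and 297 against 90.5 and 89.3 at d6 and at 269 and 259 against 101 and 104 at d8. The genotypes did not overlap, and the shared difference was a log2 fold change of -1.20 ± 0.12, adjusted p = 1.44e-06. Mmp16, a membrane-type Mmp close to Mmp14 in sequence, was lower by more, with 6.31 and 8.06 CPM in WT and 1.53 and 1.5 in K36M at d4, and 3.4 and 4.54 and 0.575 and 0.194 at d8 (log2 fold change -2.62 ± 0.46, adjusted p = 0.000228 for the shared difference). At d6 Mmp16 held 7.54 and 6.35 CPM in WT and 0.0889 and 0.281 in K36M, with a log2 fold change of -5.16 that became -6.21 without K36M d6 replicate 2, and the d8 value of -3.37 became -4.34 without K36M d8 replicate 1.

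The membrane Mmps with a lipid anchor, Mmp17 and Mmp25, went the other way. Mmp17 was low in WT cells of d8 at 0.83 and 1.5 CPM and stood at 10.5 and 10.7 in K36M d8, and at d6 the values were 1.29 and 0.77 in WT and 9.24 and 6.47 in K36M. Both iPSC groups were higher than any library of d2 to d8, at 35.6 and 34 CPM in WT and 27.6 and 24.5 in K36M. The shared difference of Mmp17 was a log2 fold change of 1.99 ± 0.35, adjusted p = 0.000232. Mmp25, known from neutrophils, held 0.159 and 0.0952 CPM in WT d4 and 3.64 and 3.01 in K36M d4, 0.551 and 0.193 against 5.38 and 5.66 at d6 and 0.954 and 0.887 against 10.3 and 10.8 at d8 (log2 fold change 3.71 ± 0.32, adjusted p = 5.91e-07 for the shared difference). Its d6 log2 fold change of 3.86 became 4.80 without WT d6 replicate 1. The K36M d8 values of Mmp25 lay above those of its own iPSCs, 4 and 4.72 CPM (iPSC against d8 -1.27 ± 0.25 on the log2 scale, adjusted p = 0.000153). Mmp15, a membrane-type Mmp of epithelia, was called higher in K36M at d4 and lower at d6, at 4.56 and 4.88 CPM in WT and 8.46 and 7.51 in K36M at d4. At d6 it held 9.1 and 8.66 CPM in WT and 8.22 and 5.42 in K36M, and that call was lost without K36M d6 replicate 2 (adjusted p = 0.511), without either WT d6 library (0.132 and 0.0684) and with DESeq2 (0.0595).

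The gelatinases, which cut denatured collagen, differed from each other. Mmp2 was higher in K36M at d2, with 86.3 and 89.8 CPM in WT and 164 and 156 in K36M (log2 fold change 0.86 ± 0.13, adjusted p = 2.72e-05). At d4 the values were 67.1 and 71.9 in WT and 69.6 and 69.5 in K36M, which overlap (log2 fold change 0.00 ± 0.13, adjusted p = 1), and by d8 K36M was lower, at 24.6 and 26.2 against 78.3 and 76.2 CPM (log2 fold change -1.61 ± 0.14, adjusted p = 7.24e-10). With these opposite days, Mmp2 was not called in the shared fit (log2 fold change -0.44 ± 0.27, adjusted p = 0.176). Mmp9, the gelatinase of invasive and inflammatory cells, fell in WT cells from 24.3 and 22.8 CPM at d0 to 0.159 and 0.222 at d4, 0.184 and 0.193 at d6 and 0.498 and 0.699 at d8. In K36M it held 0.276 and 0.488 CPM at d2, 2.61 and 3.52 at d4, 8.35 and 5.94 at d6 and 14.3 and 14.1 at d8, so it lay below WT at d2 and above it from d4 on. The daily log2 fold change was 3.92 ± 0.38 at d4, 5.20 ± 0.35 at d6 and 4.51 ± 0.24 at d8. The shared difference was a log2 fold change of 3.30 ± 0.71, adjusted p = 0.00112. K36M iPSCs held 2.85 and 2.51 CPM of Mmp9, below K36M d8 (-2.40 ± 0.20 on the log2 scale, adjusted p = 1.35e-09).

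Mmp9, Mmp12 and Mmp25 are known from myeloid cells, and markers of such cells did not all differ in 1 direction between the genotypes at d8. The 12 macrophage markers found summed to 16.3 to 20.4 CPM in K36M d8 and to 15.4 CPM in both WT d8 libraries, Tyrobp and C1qa were at 0 in K36M d8, and Ptprc had a mean of 0.0242 and Lyz2 of 0.048 CPM there. Csf1r and Cd68 were higher in K36M d8 than in WT d8, at means of 4.60 against 0.374 and 12.1 against 5.65 CPM. At d4 the sums were 27.2 to 28.9 CPM in WT and 11.0 to 11.3 in K36M. All 8 neutrophil markers except Ltf were at 0 in K36M d8, where they summed to 0.871 to 0.911 CPM, and endothelial markers summed to 107 to 114 CPM there and 117 to 118 in WT d8. Trophoblast markers were higher in K36M than in WT at d4 and d8, as Mmp9 was. Their sum was 2.95 to 3.5 CPM in WT d4 and 77.2 to 81 in K36M d4. At d8 it was 37.8 to 40.3 in WT and 187 to 207 in K36M, with Krt7 at a mean of 99 CPM and the placental lactogen gene Prl3d1 at 0 in K36M d8. At d2 the sum was also higher in K36M, at 7.00 to 7.04 against 1.35 to 1.55 CPM, where Mmp9 was lower. In WT d0 the sum was 3.37 to 4.83 CPM, with Mmp9 at 24.3 and 22.8. In iPSCs it was 121 to 127 CPM in WT and 166 to 169 in K36M, with Mmp9 at means of 2.47 and 2.68. The part of trophoblast cells in the Mmp9 result, and of myeloid cells in the Mmp9, Mmp12 and Mmp25 results, was not tested.

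Mmp28 had the largest fall of any Mmp in the shared fit. K36M libraries held 8 and 7.65 CPM at d2, 4.67 and 4.04 at d4, 1.73 and 1.57 at d6 and 1.68 and 1.5 at d8, so they were highest at d2 and at 4.67 CPM or below from d4 on, where WT had its highest values. The shared difference was a log2 fold change of -3.72 ± 0.52, adjusted p = 3.44e-05, and the daily log2 fold change went from -0.97 at d2 to -5.29 at d6. Its exons share 465 bases (12.0% of their length) with 1700020L24Rik on the opposite strand, whose mean was 0.208 CPM in WT d0, 6.61 in WT d6, 0.0207 in WT iPSC and 0.47 in K36M d6. The library kit keeps strand, but the setting used in counting is not given in the sources used here, so reads of these 2 genes cannot be told apart with certainty. Mmp11, a stromal Mmp, was lower in K36M on each day, for example 25.8 and 25.4 CPM in WT and 11.2 and 8.88 in K36M at d4 (log2 fold change -1.02 ± 0.13, adjusted p = 1.89e-05 for the shared difference). Mmp11 stood at 54.7 and 51 CPM in WT iPSCs and 48.9 and 47.6 in K36M iPSCs. These values lay above those of all other groups except K36M noOKSM, at 60.4 and 49.8. Mmp19 held 3.4 and 4.73 CPM in WT d8 and 1.44 and 0.919 in K36M d8, and its shared call (log2 fold change -0.99) was lost without the d6 libraries (-0.61, adjusted p = 0.248) and without any of 8 single libraries of d4 to d8 (0.0518 to 0.0838). Mmp23 was called lower in the shared fit (log2 fold change -0.46 ± 0.15) and on a single day, d4, with 15 and 13.2 CPM in WT and 7.58 and 6.86 in K36M.

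The collagenase and stromelysin genes form a cluster on chromosome 9 that was close to silent throughout. On mm9 it runs from 7272514 to 7699585, 427.1 kb that hold 10 Mmp genes (Mmp13, Mmp12, Mmp1b, Mmp3, Mmp1a, Mmp10, Mmp8, Mmp27, Mmp20 and Mmp7, in that order) and no other protein-coding gene in GENCODE vM1. All 28 libraries together gave 1167 counts to these 10 genes, where the neighbouring gene Dcun1d5 alone had 56968. The group totals, over 2 libraries each, were 189 counts in WT d0, 5 in WT d2, 10 in WT d4, 61 in WT d8 and 175 in WT iPSC, and 79, 3, 60, 68 and 180 in the same K36M groups. Different genes made up these totals: Mmp10 and Mmp12 in MEFs, with 99 and 52 counts in WT d0, and Mmp3 in iPSCs, with 123 counts in WT and 137 in K36M and 7 or fewer in every other group. Mmp20, the enamel protease enamelysin, had 24 counts in all, of which 9, 7 and 7 came from K36M d4, d6 and d8 and 1 from WT d8, too few to be tested. Mmp1a and Mmp1b are near copies of each other, so counts may be split or lost between them.

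Mmp12, the macrophage elastase, was the cluster gene called on 3 of the 4 days, d4, d6 and d8. It had 1 count in WT d4, 2 in WT d6 and 4 in WT d8, against 25, 40 and 39 in K36M, that is 0.083 and 0.0537 CPM in WT d8 and 1.05 and 0.822 in K36M d8 (adjusted p of 3.87e-05, 1.15e-05 and 4.26e-06 on these days). At d0 the order was the opposite, with 1.56 and 1.17 CPM in WT and 0.402 and 0.507 in K36M (log2 fold change -1.58 ± 0.39, adjusted p = 0.00757), where the macrophage markers summed to 64.0 to 70.5 CPM in WT and 19.6 to 20.3 in K36M. That d0 call was lost without WT d0 replicate 1 (adjusted p = 0.11) or K36M d0 replicate 1 (0.096). Leaving out WT replicate 1 or WT replicate 2 moved the log2 fold change of Mmp12 from 4.58 to 6.80 or 3.37 at d4 and from 4.02 to 3.07 or 7.30 at d6, and it was still called. Mmp13 went against Mmp12 at d8, with 26 counts in WT and 3 in K36M (adjusted p = 0.0209). That call was lost without WT d8 replicate 1 (0.0828) or K36M d8 replicate 2 (0.188), and the log2 fold change of -2.48 became -6.33 and -1.55 without K36M d8 replicate 1 and replicate 2. Mmp10 was lower in K36M in both kinds of MEF, at 2.79 and 2.4 CPM in WT d0 and 0.759 and 0.967 in K36M d0 (log2 fold change -1.58 ± 0.32, adjusted p = 0.00139).

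Among the members' promoter windows, the AP-1 letters were found in the cluster and in no other member. RefSeq windows (build GRCm38.p6, 250 bases before to 50 after each annotated start) were matched for 32 of the 46 members. The AP-1 motif TGANTCA, bound by Fos and Jun proteins, was found on either strand in 8 of these 32 members (25.0%) and in 8.97% of all 27025 genes with a window. All 8 lie in the cluster (Mmp1a, Mmp1b, Mmp3, Mmp7, Mmp10, Mmp12, Mmp13 and Mmp20), so they are neighbours with a common origin and not separate draws. The TATA box letters TATAAA were in 11 members (34.4%) and 15.67% of all genes, the Ets letters AGGAAG in 15 (46.9% and 38.42%) and the Runx letters TGTGGT in 6 (18.8% and 18.92%). Of the 11 with TATAAA, all but Adamts1 and Mmp21 lie in the cluster too. All 14 members without a window lie outside the cluster, so its genes weigh more in these member shares. The 2 sets of stretches printed here are the 100 bases before the start of the 4 cluster genes that passed the filter on counts, and of 3 members that were lower in K36M. Capitals mark TGANTCA and TATAAA, on either strand, and the Mmp12 stretch belongs to the second of its 2 annotated starts, since the window of the first holds no TGANTCA. The coordinates are chr9:7272414-7272513 for Mmp13, chr9:7347274-7347373 for Mmp12, chr9:7445722-7445821 for Mmp3 and chr9:7502242-7502341 for Mmp10, all on the forward strand, and chr11:118355412-118355511 (reverse strand) for Timp2, chr10:86300312-86300411 (forward) for Timp3 and chr11:83463041-83463140 (reverse) for Mmp28.
Mmp13: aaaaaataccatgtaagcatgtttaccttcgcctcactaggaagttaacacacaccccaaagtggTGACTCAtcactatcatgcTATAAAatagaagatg
Mmp12: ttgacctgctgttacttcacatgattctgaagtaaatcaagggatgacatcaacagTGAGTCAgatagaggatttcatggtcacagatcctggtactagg
Mmp3: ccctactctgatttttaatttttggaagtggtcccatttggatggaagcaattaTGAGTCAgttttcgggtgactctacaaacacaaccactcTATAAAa
Mmp10: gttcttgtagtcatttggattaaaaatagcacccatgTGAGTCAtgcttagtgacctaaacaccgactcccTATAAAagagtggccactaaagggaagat
Timp2: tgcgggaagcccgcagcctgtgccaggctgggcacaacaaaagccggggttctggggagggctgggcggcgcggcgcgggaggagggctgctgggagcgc
Timp3: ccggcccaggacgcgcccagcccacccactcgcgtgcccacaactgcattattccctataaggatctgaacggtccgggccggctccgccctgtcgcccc
Mmp28: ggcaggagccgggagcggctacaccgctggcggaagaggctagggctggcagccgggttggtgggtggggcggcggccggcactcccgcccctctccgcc
In the first 4 stretches the AP-1 letters start at position -35 in Mmp13, -44 in Mmp12, -46 in Mmp3 and -63 in Mmp10, counted back from -1 at the last base before the start. The windows of Mmp3, Mmp10, Mmp12 and Mmp13 have a GC share of 37.7% to 43.7% (the higher where a gene has several windows), and those of Timp2, Timp3 and Mmp28 of 63.7% to 68.7%, where the median window has 52.7%. A match is a description and not a binding site, and no window without the letters says anything of the factor.

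**Figure D4:**
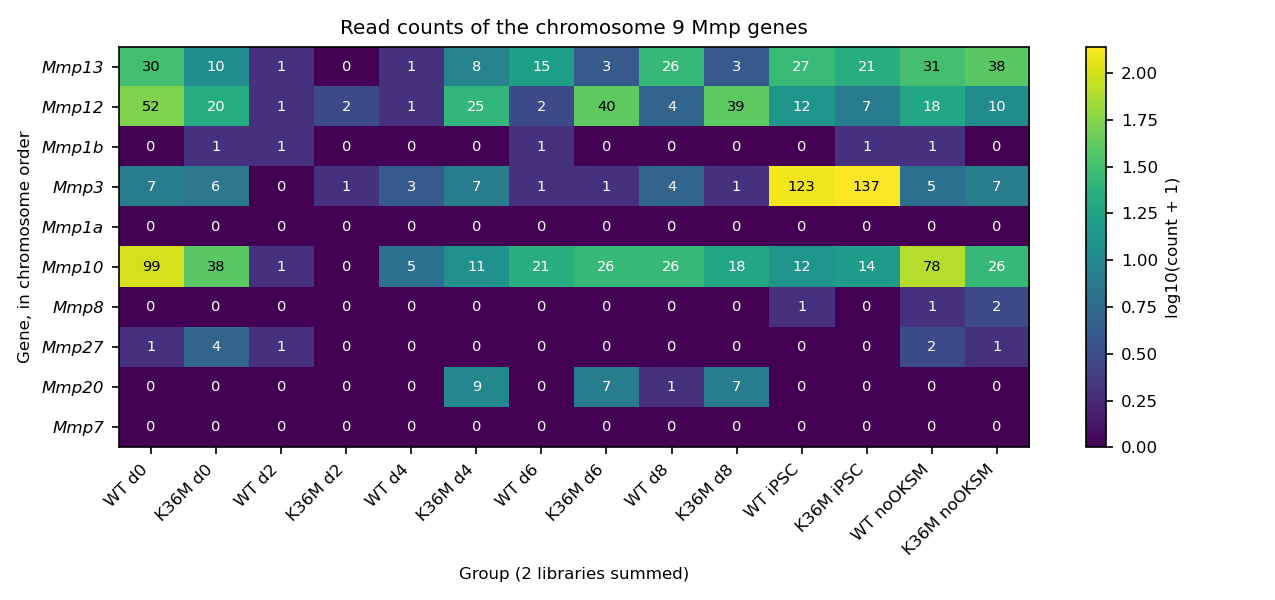
Numbers and colour (log10 of the count plus 1) give the summed counts of the 2 libraries of each group for the 10 cluster genes in chromosome order. Mmp3 has 123 and 137 counts in the iPSC groups, and Mmp12 25, 40 and 39 in K36M d4, d6 and d8.

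Among the Adamts proteases that cut aggrecan and versican, Adamts5 showed the largest difference of any member in the shared fit. Adamts5 (chromosome 16, 85858415 to 85901370), the main aggrecan-cutting enzyme of mouse cartilage, dropped in WT cells from 123 and 162 CPM at d0 to 28.5 and 32.1 at d2 and stood at 70.4 and 83.7 at d4, 79.1 and 75.8 at d6 and 44.2 and 51.1 at d8. K36M libraries held 13.9 and 14 CPM at d2, 4.18 and 5.82 at d4, 1.73 and 1.53 at d6 and 1.49 and 1.35 at d8. The WT d4 libraries lay above those of WT d2 and the K36M d4 libraries below those of K36M d2, and the genotypes did not overlap on any day (log2 fold change -3.94 ± 0.53, adjusted p = 2.73e-05 for the shared difference). K36M iPSCs, at 10.8 and 16.7 CPM, were above K36M d8 by 3.27 ± 0.25 on the log2 scale (adjusted p = 3e-10).

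Adamts1, an aggrecan- and versican-cutting protease, stood at 60.01 and 65.8 CPM in WT d4 and 17.4 and 16.1 in K36M d4, and at 27.4 and 28.8 and 5.51 and 5.71 at d8 (log2 fold change -1.99 ± 0.30, adjusted p = 6.77e-05 for the shared difference). Adamts4, its close relative, was lower in K36M at d6, with 44.4 and 49.2 CPM in WT and 7.64 and 11 in K36M (log2 fold change -2.32 ± 0.18, adjusted p = 1.67e-10), and at d8 the values were 28.2 and 30.7 and 23.7 and 23.1 (log2 fold change -0.33 ± 0.17, adjusted p = 0.0994). Its shared call (-0.79 on the log2 scale) was lost without the d6 libraries (-0.30, adjusted p = 0.0512) and without K36M d6 replicate 2 (-0.63, adjusted p = 0.0599). Adamts20 held 11.6 and 11.9 CPM in K36M d2, near the WT values, 2.9 and 2.35 at d4 and 0.384 and 0.484 at d8 (log2 fold change -1.86 ± 0.44, adjusted p = 0.00233 for the shared difference), and its d6 log2 fold change of -3.83 became -3.22 and -5.05 without K36M d6 replicate 1 and replicate 2. The d6 value of Adamts1 (-3.21) became -3.82 without K36M d6 replicate 2. Adamts9, the other versican-cutting protease of this group, was lower in K36M at d4, with 2.49 and 3.3 CPM in WT and 1.13 and 1.13 in K36M, and higher at d8, with 3.57 and 3.84 and 8.3 and 7.45 (log2 fold change -1.39 ± 0.28, adjusted p = 0.000195 at d4 and log2 fold change 1.08 ± 0.19, adjusted p = 3.81e-05 at d8).

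Adamts proteases that trim procollagen did not move together. Adamts2, which removes the N-terminal propeptide of type I procollagen, was called higher in K36M at d2, with 2.9 and 2.2 CPM in WT and 4.23 and 3.47 in K36M (log2 fold change 0.61 ± 0.19, adjusted p = 0.0276). It was lower in K36M at d8, with 7.42 and 6.34 CPM in WT and 0.719 and 0.774 in K36M (log2 fold change -3.19 ± 0.22, adjusted p = 3.16e-11), and its shared call (-1.51) was lost without the d6 libraries (-1.23, adjusted p = 0.0717). Adamts14, with the same activity, was higher in K36M at d8, with 1.29 and 1.24 CPM in WT and 6.91 and 5.08 in K36M (log2 fold change 2.25 ± 0.26, adjusted p = 1.34e-07). At d6 Adamts14 held 4.27 and 1.77 CPM in the K36M libraries, and its log2 fold change there was 1.62 with all libraries and 0.87 without K36M d6 replicate 1. Its shared call (0.93) was lost without the d6 libraries (adjusted p = 0.145) and without any of 6 single libraries of d6 and d8 (0.0506 to 0.0794). Adamts3, which trims type II procollagen, stayed at 2.47 CPM or below in every library and was lower in K36M at d2 (adjusted p = 0.00096) and higher at d8 (adjusted p = 0.0366). Its d2 call (log2 fold change -1.56) was lost without K36M d2 replicate 1 (-1.11, adjusted p = 0.0566). Its d8 call was lost with DESeq2 (0.0626), with no filter on counts (0.0705) and without WT d8 replicate 1 (0.0667), WT d8 replicate 2 (0.17) or K36M d8 replicate 2 (0.259).

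The Comp-cutting pair and the less studied members were mostly lower in K36M. In K36M Adamts12 stood at 12.1 and 12.7 CPM at d2, 1.72 and 2.63 at d4 and 0.623 and 0.871 at d8, where WT held 23.3 and 23.3, 10.4 and 14.6 and 6.84 and 8.41 (log2 fold change -2.76 ± 0.47, adjusted p = 0.000176 for the shared difference). At d6 it held 10.2 and 12 CPM in WT and 0.0444 and 0.562 in K36M, and its log2 fold change of -5.11 became -4.29 without K36M d6 replicate 1 and -7.80 without replicate 2. Adamts7 held 109 and 117 CPM in K36M d2, near the WT values, and 45.4 and 47.7 in K36M d8 against 116 and 117 in WT d8 (log2 fold change -0.91 ± 0.18, adjusted p = 0.000633 for the shared difference). Adamts6 held 12.9 and 15.9 CPM in WT d8 and 2.01 and 1.84 in K36M d8 (log2 fold change -2.02 ± 0.40, adjusted p = 0.000579 for the shared difference), and its d6 value of -3.61 became -2.99 and -4.88 without K36M d6 replicate 1 and replicate 2. Adamts10, which acts on fibrillin microfibrils, held 31.4 and 28.5 CPM in WT d8 and 6.57 and 5.47 in K36M d8 (log2 fold change -1.28 ± 0.25, adjusted p = 0.000464 for the shared difference). Adamts17, also tied to fibrillin, held 2.71 and 2.55 CPM in WT d6 and 0.4 and 0.361 in K36M d6 (log2 fold change -1.29 ± 0.30, adjusted p = 0.00197 for the shared difference). Adamts19 was called higher in K36M at d4, d6 and d8 at a low level, with 5 counts in WT d8 and 43 in K36M d8, and reached 0.902 and 1.28 CPM in WT iPSCs. Its d6 log2 fold change of 4.37 became 6.79 and 3.54 without WT d6 replicate 1 and replicate 2. Adamts15 and Mmp24 were also called higher in the shared fit (0.79 ± 0.23 and 0.95 ± 0.36), with values of at most 3.53 and 0.727 CPM in any library. The shared call of Mmp24 was lost without either WT d4 library (adjusted p = 0.066 and 0.0783), either K36M d4 library (0.0741 and 0.06) or WT d8 replicate 1 (0.0652). Mmp24 shares 13.6% of its exon bases with BC029722 on the opposite strand, whose counts may not be told apart from its own.

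**Figure D5:**
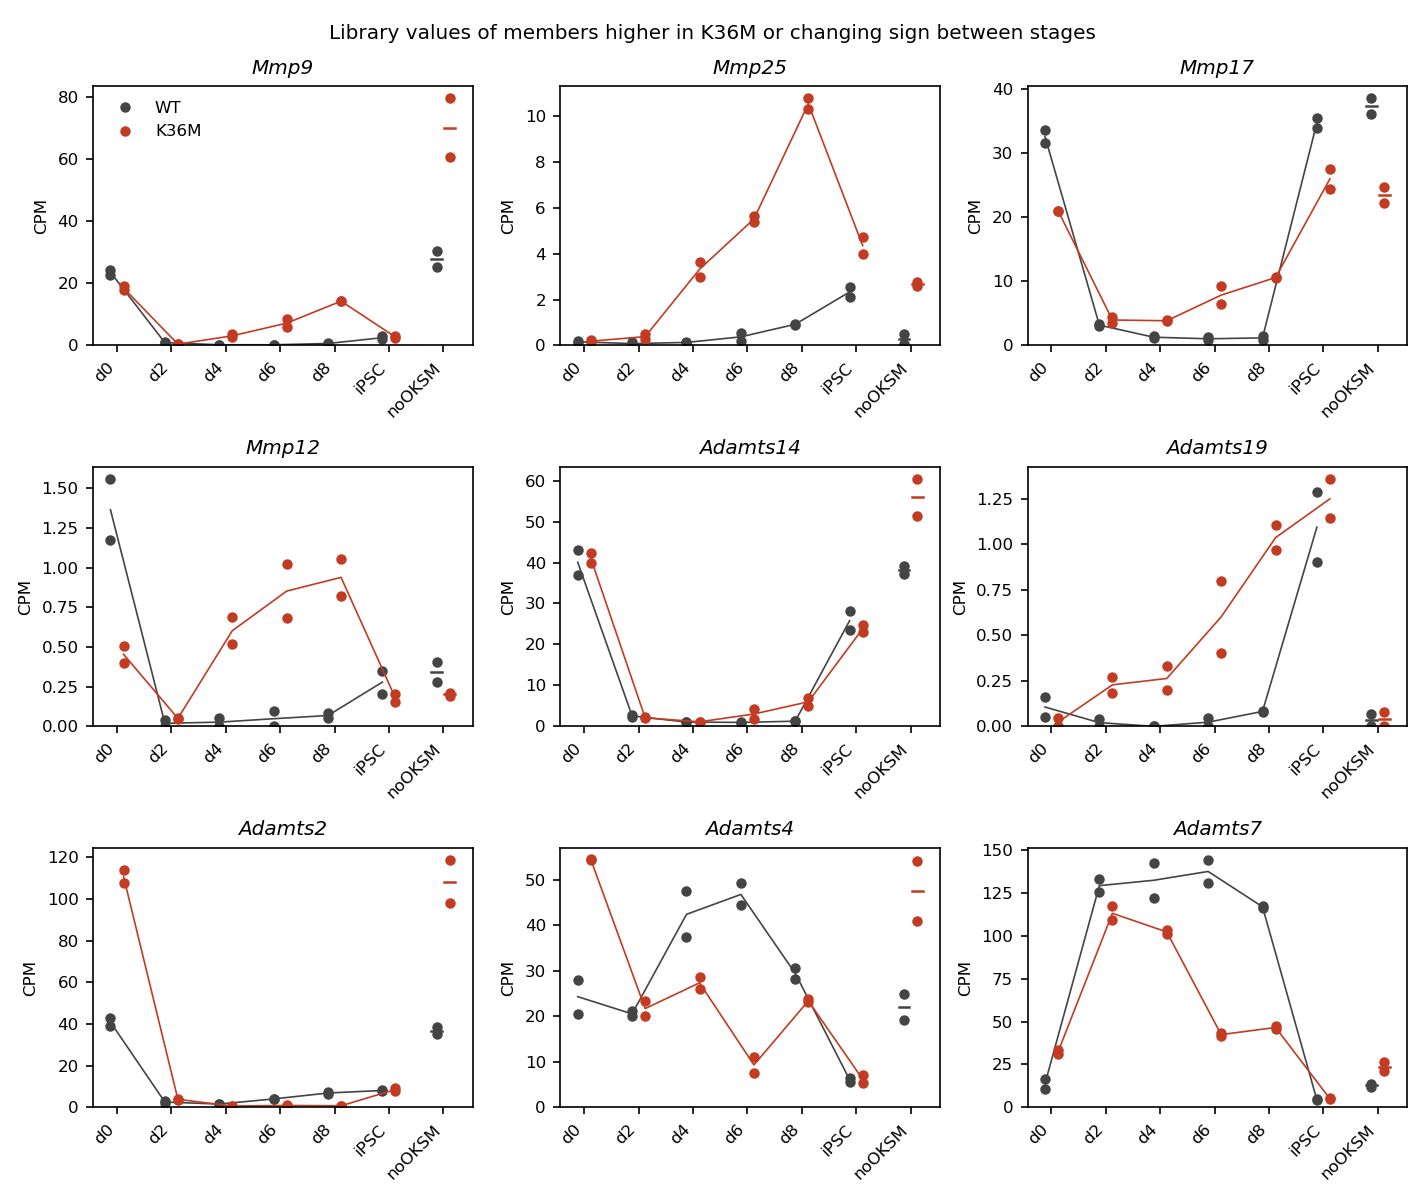
Points give CPM in each library for 9 members, WT in grey and K36M in red. Lines join group means from d0 to iPSC and short bars mark the noOKSM means. For Mmp9, the K36M d8 points are at 14.3 and 14.1 CPM and the WT d8 points below 0.7, and for Adamts2 the K36M points at d0 are at 107 and 114.

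In MEFs the genotype difference had another shape, with Adamts genes higher in K36M. At d0, 8 members were higher and 9 lower, where 7.6% and 8.31% of all genes were called. The 8 that were higher were 7 Adamts genes and Mmp15, and the 9 lower ones were 5 Mmp, 2 Adamts and 2 Timp genes. Adamts2 stood at 39.1 and 42.7 CPM in WT and 107 and 114 in K36M (log2 fold change 1.44 ± 0.12, adjusted p = 2.03e-08). Adamts1 stood at 180.0 and 209 and 404 and 396 (log2 fold change 1.04 ± 0.15, adjusted p = 2.44e-05), Adamts4 at 20.6 and 28.1 and 54.6 and 54.5 (log2 fold change 1.16 ± 0.17, adjusted p = 4.16e-05), and Adamts9 at 24.1 and 35.5 and 58.4 and 54.8 (log2 fold change 0.92 ± 0.15, adjusted p = 0.000117). Both K36M libraries lay above both WT libraries for each of these 4 genes. Some smaller d0 differences rested on single libraries. The call of Adamts5 (0.48) was lost without WT d0 replicate 1 or either K36M library (adjusted p 0.111 to 0.457), that of Adamts10 (-0.45) without WT d0 replicate 2 or either K36M library (0.089 to 0.105), and that of Mmp15 (0.59) without any of the 4 libraries (0.0886 to 0.168). The calls of Mmp28 (without WT d0 replicate 2, 0.172, or K36M d0 replicate 2, 0.132), Timp2 (without either K36M library, 0.0602 and 0.0709) and Mmp14 (without K36M d0 replicate 1, 0.111) were lost too. That of Adamts3 (-0.88) was lost without any of the 4 libraries (0.109 to 0.211), with RLE size factors (0.0547), with no filter on counts (0.0669) and with DESeq2 (0.122).

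Summed markers of cartilage and bone were higher in K36M than in WT in both kinds of MEF. Their sum was 179 to 223 CPM in WT d0 and 302 to 303 in K36M d0, and 160.3 to 163 in WT noOKSM and 297 to 322 in K36M noOKSM, with 6 of 8 markers above 0 in each of these groups and Bglap at 0 in all of them. Most of each sum was Col2a1, at means of 156 CPM in WT d0, 225 in K36M d0, 124 in WT noOKSM and 262 in K36M noOKSM. Of the 4 Adamts genes above, Adamts2 and Adamts4 were higher in K36M in noOKSM too, Adamts1 was lower (log2 fold change -0.44 ± 0.15, adjusted p = 0.0244), and Adamts9 was not called (log2 fold change -0.01 ± 0.15, adjusted p = 0.976). The part of such cells in the Adamts values was not tested.

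Several members changed the sign of their genotype difference between d0 and reprogramming. The K36M difference at d2 to d8 and iPSC was tested jointly against that at d0, and 32 of 37 members changed, where 75.8% of all genes did. Among them 10 were called in opposite directions at d0 and on at least 1 later day. How many of all tested genes had such opposite calls was not counted, so this count has no background beside it. Adamts1, Adamts2, Adamts4, Adamts5, Adamts7 and Adamts9 were higher in K36M at d0 and lower at d4 and d6. Mmp12 and Mmp17 were lower at d0 and higher at d4, d6 and d8, Mmp15 was higher at d0 and lower at d6, and Adamts3 was lower at d0 and higher at d8. Both calls of Adamts3, both of Mmp15 and the d0 calls of Mmp12 and Adamts5 were lost without single libraries, with the values given beside them.

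In the noOKSM MEFs more members were higher than lower in K36M. There 13 members were higher and 7 lower in K36M, where 18.2% and 16.7% of all genes were called. Adamts2 stood at 38.6 and 35 CPM in WT and 118 and 98.1 in K36M (log2 fold change 1.56 ± 0.12, adjusted p = 1.2e-09). Mmp9 was higher in K36M noOKSM, at 79.5 and 60.6 against 30.3 and 25.2 CPM, where at d0 it had been 17.9 and 19 against 24.3 and 22.8, and the 2 differences differed (adjusted p = 8.23e-06). Trophoblast markers summed to 127 to 152 CPM in K36M noOKSM and 4.89 to 5.89 in WT noOKSM. Most of the K36M sum was Krt7, at a mean of 139 CPM, while Cdx2 and Elf5 were at 0. Epithelial markers were also higher there, at 190 to 213 CPM in K36M noOKSM and 16.3 to 19.6 in WT noOKSM. The part of these markers in the Mmp9 value was not tested. Mmp16 was lower in K36M noOKSM, at 5.84 and 5.08 against 29.4 and 26.5 CPM, and was not called at d0, at 24.6 and 23.9 against 23 and 27.5 (adjusted p = 7.85e-07 for the difference between them). Mmp19 was higher at 39.1 and 33.9 against 13.1 and 11.3 CPM (log2 fold change 1.58 ± 0.18, adjusted p = 4.6e-07), and Adamts16 at 7.2 and 6.38 against 0.629 and 0.282 (log2 fold change 3.85 ± 0.32, adjusted p = 7.17e-09, with 4.56 without WT noOKSM replicate 1). Of 37 members, 10 differed between noOKSM and d0 in their K36M difference, where 25.1% of all genes did. Stage and library name prefix cannot be told apart in this comparison. Mmp19 shares 23.1% of its exon bases with 1110012D08Rik.

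Calls in noOKSM also rested on single libraries in part. The call of Timp3 was lost without WT noOKSM replicate 1 (adjusted p = 0.0991), WT replicate 2 (0.0656) or K36M replicate 2 (0.213), and that of Mmp11 without WT replicate 1 (0.15), WT replicate 2 (0.109) or K36M replicate 1 (0.267). Mmp15 lost its call without WT replicate 1 (0.0847) or K36M replicate 1 (0.145), and Mmp23 without WT replicate 2 (0.0624). Adamts1 lost it without WT replicate 1 (0.13), WT replicate 2 (0.0617) or K36M replicate 2 (0.163), Adamts14 without WT replicate 1 (0.0535), WT replicate 2 (0.0884) or K36M replicate 1 (0.105), and Adamts5 without any 1 of the 4 libraries (0.0713 to 0.121). Adamts15 (log2 fold change 2.06) went to 1.44 without WT noOKSM replicate 2, to 1.57 without K36M noOKSM replicate 1, both no longer called, and to 3.42 without WT noOKSM replicate 1. Mmp10 (-1.49) was not called without WT noOKSM replicate 2 (-1.10, adjusted p = 0.0564) and went to -2.29 without K36M noOKSM replicate 2, and Mmp25 (3.14) ranged from 2.43 without WT noOKSM replicate 2 to 4.96 without replicate 1. At d2, in the same way, the calls of Adamts1 (adjusted p 0.0639 to 0.154) and Adamts12 (0.0509 to 0.0889) were lost without any of the 4 libraries. The d2 calls of Adamts2 (without WT d2 replicate 2, 0.3, or K36M d2 replicate 1, 0.298), Mmp11 (without WT d2 replicate 2 or either K36M library, 0.0505 to 0.107) and Mmp16 (without WT d2 replicate 1, 0.072, or K36M d2 replicate 1, 0.0726) were lost as well. At d4 those of Adamts4 (without WT d4 replicate 2, 0.0757), Adamts7 (without WT d4 replicate 2 or either K36M library, 0.0578 to 0.182) and Adamts17 (without WT d4 replicate 2, 0.0853, or K36M d4 replicate 2, 0.0729) were lost, and at d8 that of Adamts17 (without WT d8 replicate 2 or either K36M library, 0.0899 to 0.147).

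In passaged iPSCs no member differed between genotypes with edgeR at an adjusted p below 0.05, where 1.25% of all tested genes did. At an unadjusted p below 0.05 there were 6 members, and the share of all genes at that threshold was not counted. DESeq2 called 3 members, where it called 319 of all 16932 tested genes. The 3 were Timp2 (log2 fold change 0.49, adjusted p = 0.0194), Mmp14 (0.32, adjusted p = 0.0302) and Mmp25 (0.91, adjusted p = 0.0487). In the edgeR fit Timp2 had a log2 fold change of 0.48 ± 0.13, adjusted p = 0.0758, Timp3 a log2 fold change of 0.63 ± 0.23, adjusted p = 0.249 and Mmp25 a log2 fold change of 0.91 ± 0.28, adjusted p = 0.141. The K36M difference itself changed from d8 to iPSC in 24 of 37 members, where 47.8% of all genes changed. It shifted up for 17 of them, led by Adamts5 (5.15 ± 0.31 on the log2 scale), Mmp28 (5.04 ± 0.44), Timp2 (4.64 ± 0.20) and Timp3 (4.47 ± 0.34), and down for 7, led by Mmp9 (-4.38 ± 0.36) and Mmp12 (-4.33 ± 0.89). K36M iPSCs differed from K36M d0 in 32 members, where 75.5% of all genes differed. Against K36M d8 they were higher in 16 members and lower in 8, where 27.1% and 24.5% of all genes were called, with Mmp3 (1 count in K36M d8 and 137 in K36M iPSC), Adamts2, Adamts5 and Timp2 among the higher ones and Adamts7, Mmp9 and Mmp12 among the lower ones.

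Other genes of the pathway were read from lists drawn up from general knowledge of the protease system, and all counts refer to the shared d2 to d8 fit. Of 14 tested activators of Mmps and genes of the plasmin system, 4 were higher in K36M and 9 lower, with a median log2 fold change of -0.59. Hpn and Prss8, serine proteases of epithelial surfaces, were higher (means of 0.574 and 19.7 CPM in WT and K36M for Hpn, log2 fold change 5.03 ± 0.40, adjusted p = 2.42e-07), and Ctsk, the collagen-cutting cathepsin, was lower (log2 fold change -2.55 ± 0.38, adjusted p = 6.46e-05). Of 12 inhibitors other than Timps, 3 were higher and 5 lower (median -0.46): Spint1 and Spint2, which block epithelial serine proteases, were higher (log2 fold change 2.21 ± 0.36, adjusted p = 0.000136 and log2 fold change 1.96 ± 0.29, adjusted p = 5.06e-05), and Reck, a membrane inhibitor of Mmp14, Mmp2 and Mmp9, was lower (log2 fold change -1.52 ± 0.20, adjusted p = 2.14e-05). Hpn, Prss8, Spint1 and Spint2 moved with the epithelial markers given above, and Prss8 is also one of these markers.

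Adamts-like proteins, which lack the protease domain, and papilin had 4 lower and 0 higher of 6 tested genes (median -1.82), with Adamtsl3 at means of 13.5 CPM in WT and 0.476 in K36M (log2 fold change -5.27 ± 0.74, adjusted p = 3.65e-05). Of 11 membrane Adam proteases 5 were lower and 1 higher (median -0.21), among the lower ones Adam12 (log2 fold change -2.38 ± 0.28, adjusted p = 6.87e-06) and the sheddase Adam10 (log2 fold change -1.15 ± 0.20, adjusted p = 0.000203). Of 5 procollagen and astacin proteases 3 were lower and 1 higher (median -0.80). The higher one was Mep1b, a meprin subunit (log2 fold change 6.11 ± 0.49, adjusted p = 1.52e-06), and Tll1, a procollagen C-proteinase, was among the lower ones (log2 fold change -3.18 ± 0.49, adjusted p = 7.92e-05). Matrix proteins that these enzymes cut had 6 higher and 15 lower of 23 tested genes (median -1.11), led by the thrombospondin gene Thbs1 at means of 3350.0 CPM in WT and 204 in K36M (log2 fold change -4.66 ± 0.42, adjusted p = 8.93e-07). With all 24 genes of the list tested there, it had 8 higher and 1 lower in K36M at d0 and 12 and 5 in noOKSM. Beside these lists, the median over all genes in the shared fit was 0.02, and 30.2% of all genes were higher and 28.2% lower.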

How the data were processed

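Poly(A) RNA of 28 libraries was sequenced after a strand-keeping library kit, per the labels' protocols, and the table that the authors deposited holds whole-number read counts by gene. The tools named in the submitters' processing notes are HTSeq 0.11.2, STAR 2.5.0 and edgeR, and the build is mm9. Strand setting, gene models and the treatment of multiply matching reads: not given in the sources used here, so counts of overlapping or near-identical genes are uncertain. Columns were assigned to samples through their names (0 left over). Those of iPSC and noOKSM libraries name no stage, and were assigned through library number together with genotype and replicate. Of 37620 gene IDs 37205 were in GENCODE vM1 (mm9), which gave coordinates and exon lengths.

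Counts were fitted with edgeR 4.0.16 in R 4.3.3: TMM scaling, filterByExpr (minimum count 10, total 15) and a robust quasi-likelihood fit of all 14 groups (16932 genes, 14 residual degrees of freedom). A second fit, on 16 libraries (d2 to d8) with genotype and day as terms, gave the shared difference (15954 genes, 11 residual degrees of freedom). Two-sided p-values were adjusted (Benjamini-Hochberg) across every tested gene of a comparison, with calls at an adjusted p below 0.05. The script was tested on simulated data. CPM is the count divided by the TMM-scaled library size, times 1e+06. The standard error of a log2 fold change is its size divided by the square root of F.

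The members, the gene lists (activators, other inhibitors, Adamts-like, Adam, astacin and matrix genes, and markers of fibroblasts, pluripotent cells, epithelium, macrophages, neutrophils, endothelium, trophoblast, and cartilage and bone) and the tests were chosen with earlier results of these data known. Every member may be named. Library values are given for members that reached a mean of 10 CPM in a group, or were called in the shared fit and reached 2 CPM, and in part for others. From each pathway list up to 3 called genes with the largest shared difference and a mean of 5 CPM are named. The contrast of K36M iPSC with K36M d8 and the change of the K36M difference from d8 to iPSC were added after values were seen. Alternatives were DESeq2 1.42.0, other size factors, no filter, a replicate block, leaving out each library, a fit of each stage alone, the mean of the daily differences and the shared fit without d6. Promoter windows came from RefSeq (GRCm38.p6).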

Additional observations from a re-analysis of the deposited data

Results flagged for a closer look

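For 10 members the K36M difference had opposite calls at d0 and on a later day, and the joint test of the difference at d2 to d8 and iPSC against that at d0 (edgeR, adjusted over all genes) passed for each. Its adjusted p was 8.72e-15 for Adamts5, 1.28e-12 for Adamts1, 2.14e-12 for Adamts2, 1.17e-11 for Mmp17, 1.21e-10 for Adamts7, 2.38e-09 for Adamts4, 3.37e-08 for Adamts9, 4.35e-07 for Mmp12, 0.000522 for Mmp15 and 0.000991 for Adamts3. Of these calls, those at d0 of Adamts3, Adamts5, Mmp12 and Mmp15, at d2 of Adamts1, at d4 of Adamts4 and Adamts7, at d6 of Mmp15 and at d8 of Adamts3 were lost without single libraries, and those of Adamts3 also with DESeq2 and with no filter on counts. With 75.8% of all tested genes passing the same joint test, a pass alone sets no member apart. The share of all tested genes with opposite calls was not counted.

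The 2 kinds of MEF differed in the K36M difference for 10 members, by the test of noOKSM against d0 (edgeR, adjusted over all genes). Their library names also differ in prefix, and the part of that in these results cannot be told apart. Mmp9 (log2 difference between the 2 contrasts 1.69 ± 0.22, adjusted p = 8.23e-06), Mmp25 (2.94 ± 1.07, 0.0481), Adamts16 (2.09 ± 0.46, 0.00233), Mmp28 (1.17 ± 0.27, 0.00356), Adamts3 (1.11 ± 0.40, 0.0472), Mmp19 (1.01 ± 0.27, 0.00868) and Timp1 (0.53 ± 0.19, 0.0438) shifted toward higher in K36M in noOKSM. Mmp16 (-2.30 ± 0.25, 7.85e-07), Adamts1 (-1.48 ± 0.21, 2.31e-05) and Adamts9 (-0.94 ± 0.21, 0.00242) shifted toward lower. Adamts1 is the member with opposite calls in the 2 kinds of MEF, at 404 and 396 CPM in K36M and 180.0 and 209 in WT at d0 and at 116 and 106 and 154 and 146 in noOKSM. Its noOKSM call was lost without WT noOKSM replicate 1 (adjusted p = 0.13), WT noOKSM replicate 2 (0.0617) or K36M noOKSM replicate 2 (0.163).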

How the results depend on the processing

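No member's call changed direction under any alternative run. A call whose gene failed the filter on counts in an alternative fit, as some did in the fits of a single stage, is counted below as neither kept nor ended. Of the called member differences, DESeq2 kept 345 and ended 5, RLE size factors kept 348 and ended 2, no filter on counts kept 346 and ended 4, fits of a single stage kept 125 and ended 2, the mean of the daily differences kept 27 and ended 0, and the shared fit without d6 kept 23 and ended 4 (Adamts2, Adamts4, Adamts14 and Mmp19). Leaving out each library in turn, with the lone library of a group assumed to vary like the others, kept 1593 and ended 131. The number of members called was then 10 to 13 at d0 (17 with all libraries) and 7 to 10 at d2 (13). It was 0 to 2 in iPSCs (0), 12 to 17 in noOKSM (20) and 1 to 2 for WT noOKSM against WT d0 (2). Fewer samples in a fit can lower such counts, but the count in iPSCs rose in part of these runs. Whether the lower counts came from fewer samples or from dependence on single libraries was not tested. In iPSCs 3 members were called with no filter (Timp2, Timp3 and Mmp25), 3 with DESeq2 and 4 with only the 4 libraries of that stage (Mmp14, Mmp17, Mmp25 and Adamts9). Of all genes, 447 of 25652 were called with no filter, 319 of 16932 with DESeq2 and 1397 of 14642 with only that stage. The cause was not tested. The deviations of same-numbered WT and K36M libraries had correlations of -0.184 to 0.344 over the 7 stages, highest in noOKSM (0.344) and at d6 (0.203). The numbers were not taken as pairing. With the replicate block all 350 genotype and stage calls of members were kept, and the counts were 14 at d2, 30 at d6 and otherwise within 1 of those without it. This block is a single term common to all groups, so it cannot take up pairing within a stage. Members with few counts (Mmp12, Mmp13, Mmp24, Adamts8, Adamts18, Adamts19) are limited by depth.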
